A study of Drosophila melanogaster with 9 samples.

Results

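The 6 genes described here code for the receptors of GABA, the main inhibitory transmitter of the fly brain. They are the channel subunit genes Rdl, Lcch3 and Grd and the G protein-coupled receptor genes GABA-B-R1, GABA-B-R2 and GABA-B-R3. They were chosen by name from the 16854 genes of the deposited expression table, and all 6 have a line there under their current symbols. RNA had been sequenced from cells sorted from brains of male and female Drosophila melanogaster whose optic lobes had been removed. Kenyon cells (KC) carried GFP, olfactory projection neurons (PN) carried tomato, and a further group (DN) was negative for both labels. Each was taken from adults and at 45 h after puparium formation (45 h APF), when the olfactory circuit is being wired.

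All groups had the same genotype, with GH146:Gal4>UAS:tomato over the CyO balancer and MB247:LexA>LexAop:GFP over the TM2 balancer. The sorted cells are those in which these drivers are active. The GH146 driver is known to mark many but not all projection neurons, together with the large GABA-releasing APL neuron of the mushroom body, and MB247 does not mark all Kenyon cells equally. The DN group is what remains, other neurons and glia alike. The labels list 9 libraries, 6 from adults (2 per cell type) and 3 at 45 h APF, each of these from a pooled sample. For adults the table gives only the authors' mean over the replicates of a cell type, and adult values below are these means. No value within a stage carries an error, and differences between single columns are given as sizes without a test. The pupal libraries were sequenced on a NextSeq with 75-base reads and the adult ones on a HiSeq with 50-base reads, so these differences and that of stage cannot be told apart. In these bulk samples fewer cells of a type and less RNA per cell cannot be told apart either.

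As background, fast inhibition by GABA runs through pentameric chloride channels of the Cys-loop family. Rdl subunits form such a channel on their own, and its loss in Kenyon cells is known to strengthen olfactory learning. Slow inhibition runs through GABA-B receptors, in which GABA-B-R1 binds GABA and GABA-B-R2 couples to G proteins, so that a working receptor needs both. Kenyon cells receive GABA mainly from the APL neuron, and projection neurons from local neurons of the antennal lobe, where GABA acts on the axon endings of olfactory receptor neurons as well.

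The genes lie at separate places in the genome (dm6, positions from Ensembl). Rdl is on chromosome 3L from 9145838 to 9182149 with 6 annotated transcripts, and Grd on 3L from 17823333 to 17839767 with 1. Lcch3 is on X from 15925105 to 15928529 with 1 transcript. GABA-B-R1 is on 2L from 15016331 to 15034704 with 2 transcripts, GABA-B-R3 on 2L from 749945 to 762399 with 7, and GABA-B-R2 on 3R from 21770333 to 21775840 with 3. Of the 1903 exonic bases of Lcch3, 456 (24.0%) also belong to exons of Ranbp16 and 140 (7.4%) to the antisense RNA CR45000, both on the other strand. Grd shares 1118 of 4071 exonic bases (27.5%) with CG5577, also on the other strand. Use of strand is not stated in the labels, so reads in these stretches cannot be told apart. Ranbp16 lay between 24.2 and 46.9 FPKM and CG5577 between 0.221 and 0.917 FPKM over the 6 columns, and CR45000 was highest in adult KC (70.1 FPKM) and between 11.8 and 27.5 FPKM elsewhere. Rdl, GABA-B-R2 and GABA-B-R3 overlap no other annotated gene apart from a transposable element within Rdl, and the 2 genes that lie within GABA-B-R1 share none of its exonic bases.

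The identity of the sorted groups was checked with markers. The summed level of 6 Kenyon cell genes was 2394 (KC), 126 (PN) and 191 FPKM (DN) in adults, and 1146 (KC), 50.3 (PN) and 73.7 FPKM (DN) at 45 h APF. Not every gene of this list followed the sum. At 45 h APF 5 of the 6 were higher in KC, but sNPF was lower, at 12.87 (KC), 36.99 (PN) and 52.04 FPKM (DN). In adults Mef2 was nearly level between KC (125.3 FPKM) and PN (111.8 FPKM), and it made up most of the PN sum. The projection neuron genes Oaz and acj6 stood at 172 and 43.2 FPKM in adult PN and at 66.0 and 7.04 FPKM in pupal PN, against at most 0.178 FPKM in KC. In DN Oaz reached at most 0.255 FPKM, but acj6 was at 5.87 FPKM in adults and 2.99 FPKM at 45 h APF. The third gene of that list, vvl, did not follow PN: it was at 5.74 FPKM in PN and 5.24 FPKM in DN of adults, and at 0.860 FPKM in PN and 4.10 FPKM in DN at 45 h APF. Markers of neurons and of glia differed between the columns. The 8 neuronal markers (elav, nSyb, Syt1, brp, para, Syx1A, Snap25 and fne) summed to 1238 (KC), 4754 (PN) and 1451 FPKM (DN) in adults and to 279 (KC), 396 (PN) and 621 FPKM (DN) at 45 h APF, with fne listed at 0 in adult KC. The 7 glial markers summed to 82.0 (KC), 108 (PN) and 306 FPKM (DN) in adults and to 95.8 (KC), 1069.5 (PN) and 524 FPKM (DN) at 45 h APF. The sum was thus highest in the pupal PN library, and none of the 7 was at 0 in any column. Among them wrapper did not follow the sum: at 45 h APF it was at 49.0 (KC), 14.1 (PN) and 43.0 FPKM (DN). Muscle markers reached 151 FPKM in pupal DN and at most 5.78 FPKM elsewhere, and hemocyte markers summed to at most 0.614 FPKM in any column. From the smallest steps between values, the pupal columns rest on about 24.1 (KC), 29.1 (PN) and 32.1 (DN) times 1e6 reads. Adult values fitted such steps less often (at most 77.1% within 0.1 of a whole read), and their depth was not inferred.

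Levels are given as FPKM, fragments scaled to transcript length and to the mapped reads of the library, which sets genes of different length on one scale. Lcch3 and GABA-B-R2 were the broadly high members, each above 100 FPKM in all 6 columns. Rdl and GABA-B-R1 spanned the widest ranges in log2(FPKM + 1), and both were highest in adult PN. GABA-B-R3 was at an intermediate level in PN and DN and under 1 FPKM in KC at both stages. Grd stayed under 2 FPKM everywhere.

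**Figure D1:**
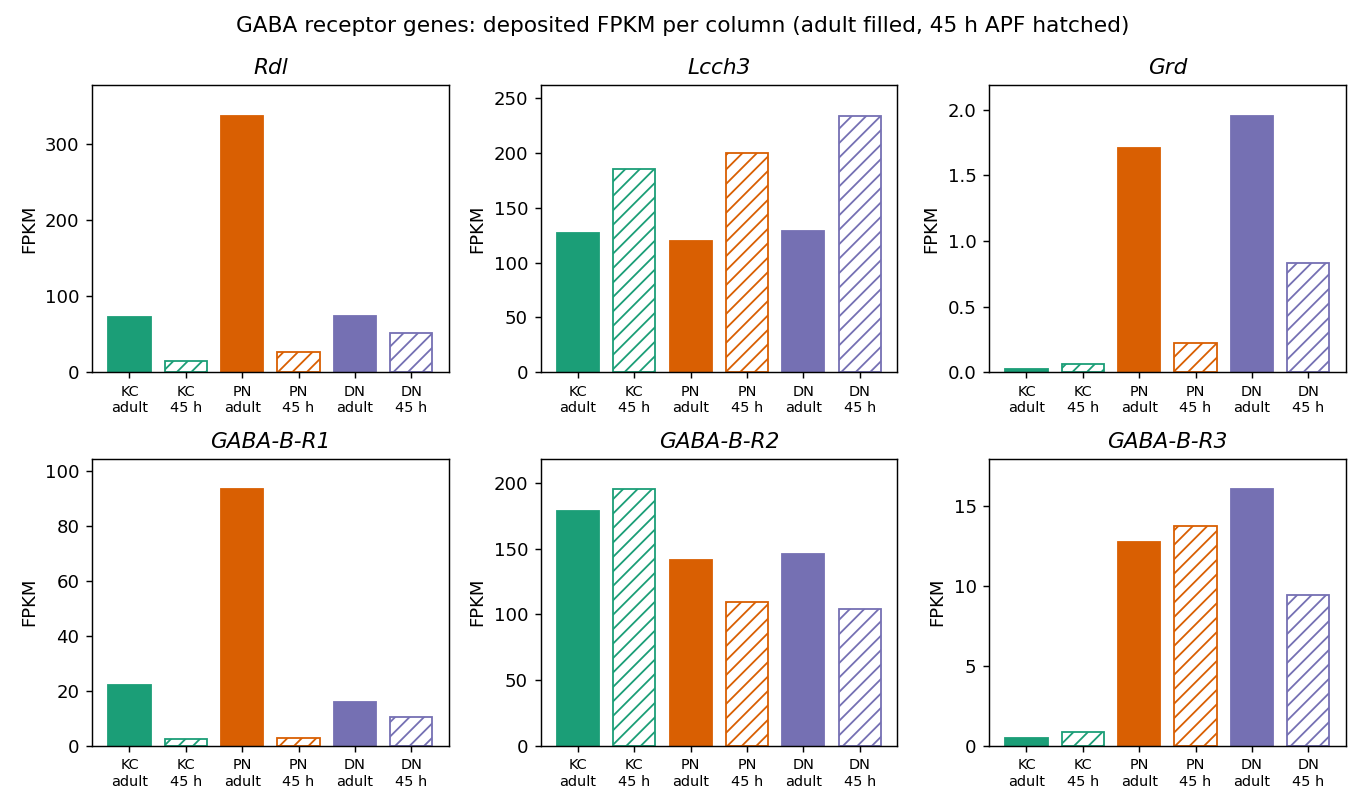
Deposited FPKM of each GABA receptor gene, 1 bar per column, for Kenyon cells (KC), projection neurons (PN) and cells negative for both labels (DN). Filled bars are the authors' adult means and hatched bars single libraries at 45 h APF; each panel has its own linear axis from 0. Rdl and GABA-B-R1 peak in adult PN at 337 and 93.1 FPKM, and GABA-B-R3 is under 1 FPKM in both KC columns.

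Rdl, the subunit of the main GABA-gated chloride channel, was at 71.8 (KC), 337 (PN) and 73.1 FPKM (DN) in adults. At 45 h APF it was at 14.0 (KC), 26.4 (PN) and 51.3 FPKM (DN). Adult PN stood alone at the top, where Rdl held place 359 among all genes. Adult DN and adult KC followed almost level, 0.02 apart in log2(FPKM + 1), and pupal KC was lowest, with Rdl in place 5009. From the highest to the lowest column Rdl spanned 4.50 on the log2 scale. The order of the cell types thus differed between the stages, with PN highest in the adult and DN highest at 45 h APF.

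Lcch3, a channel subunit related to the beta subunits of vertebrate GABA-A receptors, was nearly even across cell types. Adult values were 127 (KC), 119 (PN) and 129 FPKM (DN). Pupal values were 185 (KC), 200 (PN) and 234 FPKM (DN). All 3 adult columns lay below all 3 pupal ones, as for 29% of the 9340 genes fitted below, and the whole range was 0.97 on the log2 scale. No pair of columns was 2-fold apart.

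Grd, a subunit that is known to form a GABA-gated cation channel together with Lcch3 in frog oocytes, was close to the lower limit of the data. It stood at 0.0225 (KC), 1.71 (PN) and 1.96 FPKM (DN) in adults, and at 0.0637 (KC), 0.218 (PN) and 0.833 FPKM (DN) at 45 h APF. With the depths inferred above, the pupal values correspond to about 5.9 reads in KC, 24.6 in PN and 103.5 in DN. Both KC columns lay below all PN and DN columns, as for 9.37% of fitted genes, the pupal KC value on a handful of reads. Grd came among the fitted genes through its adult PN and DN values alone, so nothing is read from this order.

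GABA-B-R1, the GABA-binding partner in the GABA-B receptor, was at 22.1 (KC), 93.1 (PN) and 15.9 FPKM (DN) in adults. At 45 h APF the values were 2.48 (KC), 2.80 (PN) and 10.3 FPKM (DN). As with Rdl, adult PN was highest by a wide step (2.03 on the log2 scale above adult KC). Pupal PN and pupal KC were the lowest, 0.13 apart. The range over the 6 columns was 4.76, the widest of the members on this scale.

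GABA-B-R2, the G protein-coupling partner, was at 178 (KC), 141 (PN) and 146 FPKM (DN) in adults, and at 195 (KC), 109 (PN) and 104 FPKM (DN) at 45 h APF. Both KC columns stood above all PN and DN columns, as for 7.92% of fitted genes, but the range over all columns was only 0.90 on the log2 scale. Neighbours in the order were at most 0.37 apart.

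GABA-B-R3, a further receptor of the GABA-B family, was at 0.496 (KC), 12.8 (PN) and 16.0 FPKM (DN) in adults. At 45 h APF it was at 0.856 (KC), 13.7 (PN) and 9.41 FPKM (DN). Both KC columns lay below all PN and DN columns, as for 9.37% of fitted genes. GABA-B-R3 came among the fitted genes through its PN and DN values alone, so nothing is read from this order. Between pupal DN, the lowest column outside KC, and pupal KC lay a step of 2.49 on the log2 scale.

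The composition of each receptor class was compared between columns, since the channel subunits and the GABA-B partners work in complexes. Rdl made up 36.1% (KC), 73.6% (PN) and 35.9% (DN) of the summed FPKM of the channel genes in adults, and 7.0% (KC), 11.7% (PN) and 17.9% (DN) at 45 h APF. Lcch3 made up nearly all of the rest, from 26.0% in adult PN to 93.0% in pupal KC. Adult PN was the 1 column in which Rdl exceeded Lcch3, by 2.83 times. Grd was at most 0.960% of the sum, in adult DN.

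Among GABA-B genes, GABA-B-R2 exceeded GABA-B-R1 in every column. The ratio of GABA-B-R2 to GABA-B-R1 was 8.07 (KC), 1.52 (PN) and 9.16 (DN) in adults, and 78.7 (KC), 38.9 (PN) and 10.1 (DN) at 45 h APF. The partners were thus nearest to equal in adult PN and farthest apart in pupal KC. GABA-B-R3 made up 0.247% of the GABA-B sum in adult KC and 0.432% in pupal KC, against 5.16% to 10.9% in the PN and DN columns. These ratios compare FPKM, which rest on the authors' transcript models, and say nothing of protein.

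**Figure D2:**
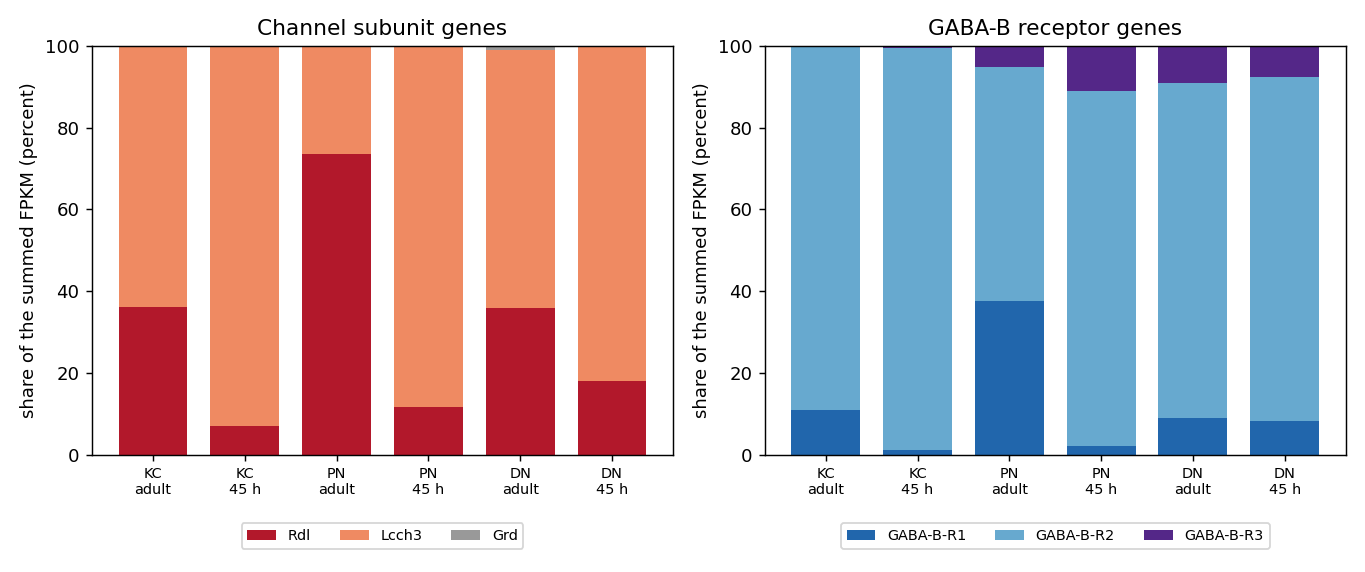
Share of the summed FPKM (percent) of the channel subunit genes Rdl, Lcch3 and Grd (left) and of GABA-B-R1, GABA-B-R2 and GABA-B-R3 (right) in each column. Rdl makes up 73.6% of the channel sum in adult PN and 7.0% in pupal KC; GABA-B-R2 is the largest part of the GABA-B sum throughout.

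Kenyon cells and projection neurons, the partners of the main input synapse of the mushroom body, were compared first. Differences are in log2(FPKM + 1), which understates the change of genes with low values, and a size of at least 1 (2-fold on this scale) is counted. The counts cover genes whose columns within the stage averaged 1 FPKM or more. All 6 members passed in the adult and 5 at 45 h APF, where Grd did not. Grd in the adult, and GABA-B-R3 at both stages, passed through their PN and DN values alone, so that a difference from KC was set by the filter, and nothing is read from their part in the counts. Rdl, Lcch3, GABA-B-R1 and GABA-B-R2 were above 1 FPKM in every column.

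In the adult, 4 of 6 members lay 2-fold or more below PN in KC, where 19.9% of all genes were, and 2 of the 4 (GABA-B-R3 and Grd) had passed only through PN and DN. These were GABA-B-R3 with a difference of -3.20 (25.7 times lower in FPKM), Rdl with -2.22 (4.69 times lower), GABA-B-R1 with -2.03 (4.22 times lower) and Grd with -1.41. No member was 2-fold higher in KC (12.1% of all genes were), and the differences of Lcch3 and GABA-B-R2 were 0.09 and 0.33. The 8 neuronal markers moved with Rdl and GABA-B-R1 here, with a median KC minus PN difference of -1.93, and 7 of the 8 lay 2-fold or more below PN. Rdl was 0.29 below that median and GABA-B-R1 0.10 below it, while GABA-B-R3 was 1.28 below it. With all columns scaled to these markers, an alternative added after the data were seen, KC minus PN turned to 0.040 for Rdl, 0.23 for GABA-B-R1 and 0.85 for Grd and was -0.95 for GABA-B-R3. The part of neuronal content in these differences was not tested.

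At 45 h APF, 1 of 5 members lay 2-fold or more below PN in KC, against 18.1% of all genes. This was GABA-B-R3 (-2.99, 16.0 times lower), which had passed only through PN and DN. Rdl, at -0.87, lay just short of the 2-fold size, and GABA-B-R1 was at -0.13. None was 2-fold higher in KC (9.07% of all genes), and the nearest was GABA-B-R2 at 0.83. The neuronal markers had a median of -0.26 in this comparison. The median of the glial markers was -4.18 and 6 of these 7 genes lay 2-fold or more below PN, and the part of glial RNA in the PN values was not tested.

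Kenyon cells were then set against the remaining cells of the central brain. In the adult, 2 of 6 members lay 2-fold or more below DN in KC, beside 13.1% of all genes, and none was higher (8.39% of all genes). Both had passed only through PN and DN. GABA-B-R3 differed by -3.51 (32.3 times lower in KC) and Grd by -1.53. The neuronal markers had a median of -0.37, and the 4 glial markers that passed the filter a median of -2.59, all 4 being 2-fold or more lower in KC. The part of glial RNA in the DN values was not tested. Rdl, at -0.02, and Lcch3, at -0.01, were level, and GABA-B-R1 and GABA-B-R2 were at 0.45 and 0.29.

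At 45 h APF, 3 of 5 members lay 2-fold or more below DN in KC, beside 19.9% of all genes, and none was higher (9.54%). GABA-B-R3 was at -2.49 (11.0 times lower), Rdl at -1.80 (3.67 times lower) and GABA-B-R1 at -1.70 (4.16 times lower). Of these 3, GABA-B-R3 had passed the filter only through PN and DN, so nothing is read from its size or its part in the count. GABA-B-R2 stood at 0.90, a higher value in KC that falls short of the 2-fold size. The neuronal markers had a median of -1.03 and spanned -1.97 to -0.20, so Rdl and GABA-B-R1 lay within their range. Scaled to these markers the differences were -1.44 for GABA-B-R3, -0.75 for Rdl and -0.65 for GABA-B-R1. For the glial markers the median was -3.10 and 5 of the 7 lay 2-fold or more below DN. For the 2 muscle markers that passed the filter, Mlc1 through DN alone, the median was -4.33. The part of neuronal content and of other cells in these values was not tested.

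For Rdl and GABA-B-R1, projection neurons and DN cells stood in opposite order at the stages. In the adult, 2 of 6 members were at least 2-fold higher in PN, beside 16.9% of all genes, and none was lower (9.49%). They were GABA-B-R1, with 2.47 (5.84 times higher), and Rdl, with 2.19 (4.62 times higher). The other 4 members lay between -0.31 (GABA-B-R3) and -0.05 (GABA-B-R2). The neuronal markers stood higher in adult PN too, with a median of 1.98 and a range of 0.71 to 2.82 that contains both genes. Scaled to these markers the PN minus DN differences were 0.44 for GABA-B-R1 and 0.15 for Rdl. The part of neuronal content was not tested.

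At 45 h APF, 1 of 5 members was at least 2-fold lower in PN than in DN, beside 9.36% of all genes, and none was higher (7.31%). It was GABA-B-R1, at -1.57 (3.67 times lower). Rdl was at -0.93, just short of the size counted, and GABA-B-R3 at 0.50. The neuronal markers had a median of -0.47 here and the glial markers 1.03.

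**Figure D3:**
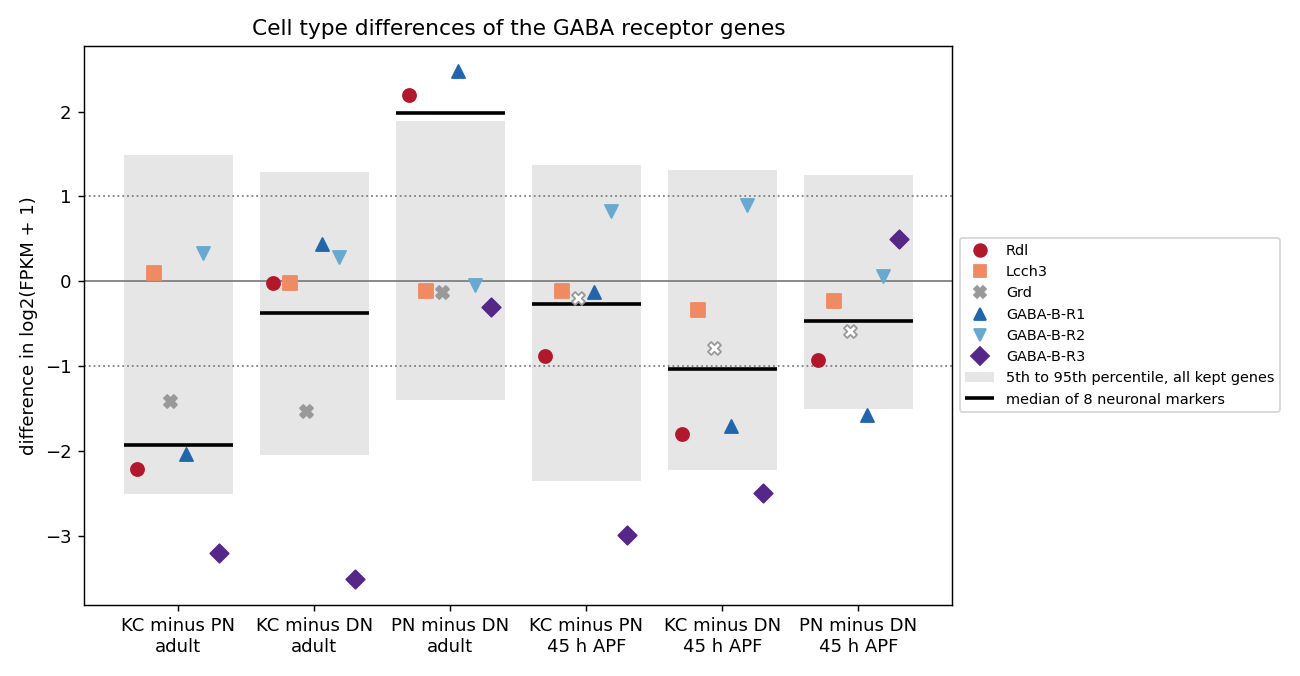
Differences between cell types in log2(FPKM + 1) for each GABA receptor gene, in the adult (left) and at 45 h APF (right). Grey bars span the 5th to 95th percentile of all kept genes, black lines are the median of the 8 neuronal markers, dotted lines mark 2-fold, and open symbols are genes under the filter. GABA-B-R3, which passed the filter through PN and DN alone, lies below the grey bar in all 4 comparisons of KC, between -3.51 and -2.49. Rdl and GABA-B-R1 lie near the black line in the adult comparisons of PN.

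Differences common to both stages were tested with limma, with cell type and stage as additive terms over the 6 columns (9340 genes, Benjamini-Hochberg adjustment over all of them). The spread behind its p-values is the change of cell type differences from stage to stage, on 2 residual degrees of freedom, and not that between replicate animals. No member was called for KC minus PN, where 0.289% of genes were called higher and 0.45% lower. For KC minus DN none was called either, beside 0.268% higher and 0.418% lower. For PN minus DN again none was called, beside 0.0214% higher and 0% lower. At an unadjusted p under 0.05, 1 of 6 members passed for KC minus PN (15% of genes), 1 for KC minus DN (10.7%) and 0 for PN minus DN (3.92%).

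The member behind both was GABA-B-R3, which entered the fit through its PN and DN values alone. A difference from KC was thus set by the filter, and nothing is read from its estimates and p-values. GABA-B-R3 was lower in KC than in PN by an estimate of -3.09 (SE 0.52), which did not pass (limma adjusted p = 0.0791, unadjusted p = 0.000864). Against DN the estimate was -3.00 (SE 0.52, limma adjusted p = 0.0872, unadjusted p = 0.00103). With a pseudocount of 0.1 the first of these passed (-4.14, limma adjusted p = 0.0464), and over all alternatives its adjusted p lay between 0.0464 and 0.513, and that of KC minus DN between 0.0523 and 0.989 (limma). The estimate was negative in 14 of 14 alternatives for each. Rdl was at -1.54 (SE 0.69) for KC minus PN, with an adjusted p of 0.359 in limma, and GABA-B-R1 at -1.08 (SE 0.91) with an adjusted p of 0.553 in limma. For Lcch3 and GABA-B-R2 the KC minus PN estimates were -0.01 (SE 0.28) and 0.58 (SE 0.31), neither of which passed.

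Adults and pupae were compared within each cell type. In KC, 2 of the 4 members that passed the filter were at least 2-fold higher in the adult, beside 19.5% of all genes, and none was lower (24.6%). They were GABA-B-R1, with 2.73 (8.92 times higher in the adult), and Rdl, with 2.28 (5.14 times higher). Grd and GABA-B-R3 were under the filter in KC. In PN the same 2 of 5 members were at least 2-fold higher in the adult, beside 24.9% of all genes, and none was lower (31.4%). GABA-B-R1 differed by 4.63 (33.2 times higher) and Rdl by 3.62 (12.8 times higher).

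In DN none of 6 members reached the 2-fold size in either direction, where 12.1% of all genes were higher and 21.7% lower in the adult. Rdl was at 0.50 and GABA-B-R1 at 0.58 there. Lcch3 was lower in the adult column of each cell type, with differences of -0.54 in KC, -0.74 in PN and -0.86 in DN. All genes had a median stage difference of -0.31 in KC, -0.30 in PN and -0.19 in DN, which upper quartile scaling took to 0.01, -0.07 and 0.04. GABA-B-R2 lay between -0.13 (KC) and 0.48 (DN).

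The neuronal markers moved with the stage as well. Their median adult minus 45 h APF difference was 2.08 in KC, 3.49 in PN and 1.26 in DN. Relative to these medians Rdl was at 0.21 in KC, 0.14 in PN and -0.75 in DN, and GABA-B-R1 at 0.66, 1.14 and -0.67. GABA-B-R2 was 2.20 below the marker median in KC, 3.12 below it in PN and 0.78 below it in DN. Scaled to these markers, the difference was 0.32 for Rdl and 0.77 for GABA-B-R1 in KC, and -0.059 for Rdl and 0.95 for GABA-B-R1 in PN. The glial markers had medians of 0.12 in KC, -4.30 in PN and -1.10 in DN. The part of cell content and of neuronal maturation in the stage differences was not tested.

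**Figure D4:**
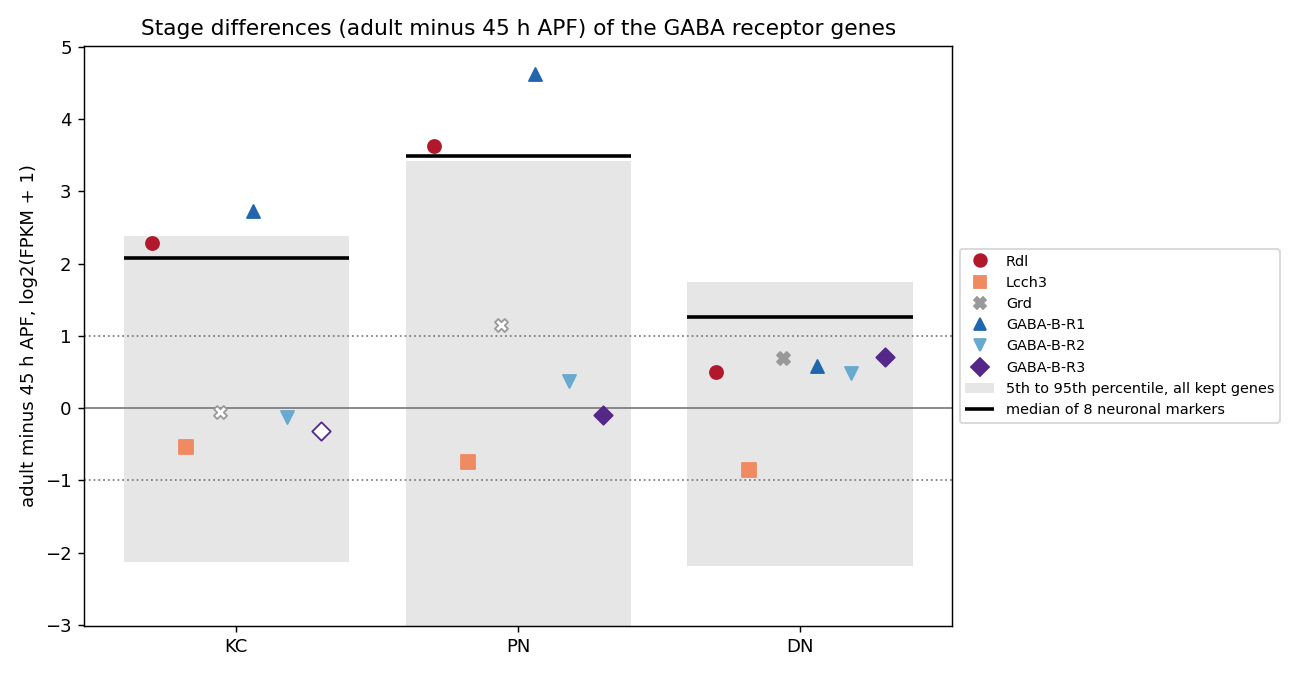
Adult minus 45 h APF differences in log2(FPKM + 1) for each GABA receptor gene in KC, PN and DN. Grey bars span the 5th to 95th percentile of all kept genes, black lines are the median of the 8 neuronal markers, dotted lines mark 2-fold, and open symbols are genes under the filter. Rdl and GABA-B-R1 lie above the black line in KC and PN and below it in DN, and Lcch3, GABA-B-R2 and GABA-B-R3 lie between -0.86 and 0.71.

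In the limma fit, 2 of 6 members were called higher in the adult over the cell types, beside 7.54% of all genes, and none was called lower (16.1%). Rdl rose by 2.14 (SE 0.57, limma adjusted p = 0.0426), higher in the adult in 3 of 3 cell types. GABA-B-R1 rose by 2.65 (SE 0.74, limma adjusted p = 0.0485), also in 3 of 3. Neither call held when any 1 of the 6 columns was left out, which leaves 1 residual degree of freedom fewer, with adjusted p between 0.0673 and 0.222 for Rdl and between 0.0706 and 0.238 for GABA-B-R1 (limma). Each of these fits also called fewer of all genes for the stage than the full fit did, so the loss was not limited to these members. Without the adult or the pupal PN column the Rdl estimate was 1.39 and that of GABA-B-R1 1.66, and without the adult or the pupal DN column they were 2.95 and 3.68. Scaled to the neuronal markers, a setting added after the data were seen, the Rdl estimate turned to -0.12 (limma adjusted p = 0.919) and that of GABA-B-R1 was 0.39 (limma adjusted p = 0.722). Over all 14 alternatives the limma adjusted p lay between 0.0294 and 0.919 for Rdl, with 4 under 0.05, and between 0.0328 and 0.722 for GABA-B-R1, with 3 under 0.05. Of the 8 neuronal markers 5 were called higher in the adult by the same fit and none lower, with a median of 2.37. Lcch3 had an estimate of -0.71 (SE 0.23) and did not pass (limma adjusted p = 0.0703), and the 3 other members lay between 0.10 and 0.60 with no call. At an unadjusted p under 0.05, 3 of 6 members passed, beside 41.6% of all genes.

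The members did not share 1 profile. The root-mean-square distance between centred log2(FPKM + 1) profiles over the 6 columns was 0.37 between Rdl and GABA-B-R1, and 0.61 between Lcch3 and GABA-B-R2. All other distances among the 5 members with a mean of at least 1 FPKM were 1.47 or more, with GABA-B-R3 at least 1.48 from any other member. By the same measure over 8866 other genes, the genes most like Rdl were CG43921 (0.16), Nipped-B (0.17) and Fur1 (0.19). Those most like GABA-B-R1 were CG9821 (0.14), Sxl (0.15) and Mkk4 (0.17). For Lcch3 they were CG40191, Ssb-c31a and CG34229 (0.06 to 0.08), and for GABA-B-R2 Pi4KIIalpha, Dark and pps (0.06 to 0.09), but 2903 and 2137 genes lay within 0.5 of these flat profiles. GABA-B-R3 had 31 genes within 0.5, and the nearest were Tbh (0.17), which makes octopamine, lov (0.21) and ssp6 (0.36). Tbh stood at 1.46 (KC), 27.1 (PN) and 27.6 FPKM (DN) in adults and at 1.71 (KC), 27.4 (PN) and 19.1 FPKM (DN) at 45 h APF. With 6 columns, 3 of which share a stage, such likeness is a description only.

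Genes that make and clear GABA were read beside its receptors. Gad1, the enzyme that makes GABA, was at 25.1 (KC), 762 (PN) and 994 FPKM (DN) in adults, and at 2.37 (KC), 37.3 (PN) and 49.3 FPKM (DN) at 45 h APF. In limma 1 of 5 genes of this list, Gad1 (-4.19, SE 0.43, limma adjusted p = 0.0208), was called lower in KC than in PN, beside 0.45% of all genes. Gad1 was also the 1 gene of the list called lower in KC than in DN (-4.58, SE 0.43, limma adjusted p = 0.029), beside 0.418% of all genes. Neither call held with any 1 column left out, while the estimates stayed at -3.51 or lower. Such a fit can leave 1 column of a cell type and called almost no gene of any kind for these contrasts, so nothing is read from the loss. Over stage 2 of 5 rose in the adult, Gad1 (3.86, limma adjusted p = 0.00461) and VGAT, the vesicular GABA transporter (1.42, limma adjusted p = 0.0227), and none fell. Of all genes 7.54% rose and 16.1% fell. Scaled to the neuronal markers, the stage estimates were 1.60 for Gad1 (limma adjusted p = 0.175) and -0.84 for VGAT (limma adjusted p = 0.466). For Gad1 the scaled KC minus PN was -2.79 (limma adjusted p = 0.513) and KC minus DN -3.94 (limma adjusted p = 0.374). The part of neuronal content was not tested. With 1 column left out the stage call of Gad1 held in 2 of 6 fits and that of VGAT in 0 of 6. The list medians were -0.88 for KC minus PN, -0.92 for KC minus DN and 0.61 for the stage, against -0.03, -0.01 and -0.23 over all fitted genes. Gat, the GABA transporter of glia, had 3.88 (KC), 5.49 (PN) and 27.7 FPKM (DN) in adults and 2.37 (KC), 82.4 (PN) and 60.2 FPKM (DN) at 45 h APF, and also stands in the glial list. Among 6 transmitter markers (Gad1, VGAT, ChAT, VAChT, VGlut and ple) limma called Gad1 lower in KC than in PN, and Gad1 and the glutamate transporter gene VGlut lower in KC than in DN. The VGlut call was lost with any 1 column left out, as was that of Gad1. In the full fit none was called between PN and DN, with 2 at an unadjusted p under 0.05 (3.92% of genes). By the same test 4 of the 6 rose in the adult, beside 7.54% of all genes, and none fell (16.1%). ChAT, which makes acetylcholine, the transmitter of most projection neurons, had 648 FPKM in adult PN, beside the 762 FPKM of Gad1, and the part of GH146-labelled cells that release GABA in the PN values was not tested. The transaminase gene Gabat had its lowest value in pupal DN (504 FPKM).

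Other chloride channel subunits of the Cys-loop family served as relatives of Rdl. GluClalpha, the glutamate-gated channel, was at 69.0 (KC), 381 (PN) and 102 FPKM (DN) in adults and at 12.4 (KC), 50.8 (PN) and 53.9 FPKM (DN) at 45 h APF, so that adult PN was its highest and pupal KC its lowest column, as for Rdl. Of 9 genes in the list 5 passed the filter of the fit. None of the 5 was called between cell types by limma. At an unadjusted p under 0.05, 1 passed for KC minus PN (15% of genes), 1 for KC minus DN (10.7%) and 0 for PN minus DN (3.92%). Over stage 3 of the 5 rose in the adult, GluClalpha (2.06, limma adjusted p = 0.0212), pHCl-1 (2.71, limma adjusted p = 0.0292) and HisCl1, a histamine-gated channel (1.48, limma adjusted p = 0.0464), and none fell. Of all genes 7.54% rose and 16.1% fell. None of the 3 calls held with any 1 column left out. The median was 1.48, beside -0.23 over all fitted genes and 2.37 for the neuronal markers, whose part was not tested. The other 4 genes, among them CG12344 and CG7589, lay at 1.24 FPKM or less in every column.

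For GABA-B receptors, 9 genes of the kinds of G proteins and channels they act on were listed. Whether each of the 9 serves these receptors was not tested. None was called between cell types by limma. At an unadjusted p under 0.05, 2 passed for KC minus PN (15% of genes), 1 for KC minus DN (10.7%) and 0 for PN minus DN (3.92%). Over stage 1 rose in the adult, the presynaptic calcium channel gene cac (1.79, limma adjusted p = 0.0458), where 7.54% of all genes rose. By the same test 3 fell, the inhibitory G protein gene Galphai (-3.11), the potassium channel gene Irk3 (-4.57) and the G protein gene Ggamma30A (-1.85), where 16.1% of all genes fell. With 1 column left out the calls of Galphai and Irk3 held in 1 of 6 fits each, and those of cac and Ggamma30A in 0 of 6. Galphai (49.7 FPKM) and Irk3 (162 FPKM) were highest in pupal PN, the library with the highest glial sum. The glial markers had a stage median of -2.32 in this fit, and their part was not tested. Galphao, a G protein alpha subunit of neurons, was at 250.3 (KC), 423 (PN) and 106 FPKM (DN) in adults and at 32.1 (KC), 9.95 (PN) and 85.0 FPKM (DN) at 45 h APF, with adult PN highest and pupal PN lowest. The list median over stage was -0.59, beside -0.23 over all fitted genes.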

How the data were processed

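The deposited values are FPKM made by the authors. The submitters' processing notes list TopHat, Cufflinks and dm6, with no version or role. The adult columns are averages by the authors, per the file headers. Of 16859 lines, 5 whose gene names had become dates were left out. Library depth of the pupal columns was inferred from single-transcript genes at low values, of which 93.1%, 94.1% and 95.7% (KC, PN, DN) came within 0.1 of a whole number of reads, assuming an effective length 200 bases under the transcript.

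Values were analysed as log2(FPKM + 1) with a filter at a mean of 1 FPKM: over the 3 columns of a stage, over both columns of a cell type, or, for limma 3.58.1 in R 4.3.3, in either stage. The fit had a mean-variance trend, 2 residual and 4.23 prior degrees of freedom, and was tested on simulated data. Adjusted p under 0.05 was called. P-values measure spread between columns only.

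The members and the lists beside them were chosen with earlier results of these data known. All list genes had a line, 4 of them under a synonym. Besides these, the 3 genes most alike to each member are named. Other pseudocounts, filters and scalings, no trend, and each column left out were tried.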

Additional observations from a re-analysis of the deposited data

Results flagged for a closer look

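GABA-B-R1 differed between PN and DN by at least 2-fold in opposite directions at the stages. The PN minus DN difference in log2(FPKM + 1) was 2.47 in the adult and -1.57 at 45 h APF. The levels were 93.1 FPKM in PN and 15.9 FPKM in DN of adults, and 2.80 FPKM in PN and 10.3 FPKM in DN at 45 h APF. With 1 column per group the difference between the stages was not tested. The change of 4.05 was larger in size than that of 97.6% of the 9340 fitted genes, a rank partly set by the rule that flagged the gene. The neuronal markers also changed direction, with medians of 1.98 in the adult and -0.47 at 45 h APF, and their part in the result was not tested.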

How the results depend on the processing

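No paired analysis was possible because the adult replicates stand in the table only as means, so no replicate could be left out or blocked. Counts of members at least 2-fold apart moved beyond 1.5 times in these settings. With a pseudocount of 0.1, DN by stage gave 1 in place of 0. With a pseudocount of 5, PN minus DN at 45 h APF gave 0 in place of 1 and adult KC minus DN 1 in place of 2. With a filter at a mean of 5 FPKM adult KC minus DN also gave 1. Upper quartile scaling gave 2 in place of 1 for PN minus DN at 45 h APF. Members called by limma for KC minus PN became 1 with a pseudocount of 0.1 (GABA-B-R3, which entered the fit through PN and DN alone). For the stage, 2 became 1 with quantile normalization and 0 with a pseudocount of 5, with no filter, with no mean-variance trend and without any 1 column (0 to 0). The causes were not tested.

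Scaling to the neuronal markers, added after the data were seen, takes the median of all genes to 2.26 for adult KC minus PN and to -3.98 for PN by stage. It gave 2 members for KC minus PN at 45 h APF, 2 for PN minus DN at 45 h APF, 2 for KC minus PN and 4 for PN minus DN in the adult, and 1 for DN by stage. Counts not named here could still rest on other members. In KC and in PN by stage, neither Rdl nor GABA-B-R1 reached the 2-fold size under this scaling. By limma for the stage it gave 2 lower and 0 higher, Lcch3 (-2.97) and GABA-B-R3, in place of Rdl and GABA-B-R1. It reversed adult KC minus PN for Rdl (0.040), Grd (0.85) and GABA-B-R1 (0.23). In PN by stage it reversed Rdl (-0.059) and GABA-B-R2 (-3.31), and in limma by stage Rdl (-0.12) and GABA-B-R3 (-2.16).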

Other observations

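Of the 3 cation-chloride cotransporters, which set the chloride gradient that GABA-gated channels use, 1 was called higher and 1 lower in the adult. Of all genes 7.54% were called higher and 16.1% lower. kcc, which exports chloride, was at 100.2 (KC), 384 (PN) and 339 FPKM (DN) in adults and at 38.4 (KC), 38.2 (PN) and 74.7 FPKM (DN) at 45 h APF. It rose in the adult by 2.28 (SE 0.39, limma adjusted p = 0.0152), higher in 3 of 3 cell types. The call held in 2 of 6 fits with 1 column left out (limma adjusted p 0.0385 to 0.116). The neuronal markers had a median of 2.37 in the same fit, and scaled to them kcc was at 0.015. NKCC, of the family of importers, fell in the adult by 1.72 (SE 0.41, limma adjusted p = 0.0313; 0.107 to 0.147 with 1 column left out), with 0.459 (KC), 2.11 (PN) and 4.23 FPKM (DN) in adults and 3.53 (KC), 11.6 (PN) and 14.0 FPKM (DN) at 45 h APF. Ncc69, also an importer, was not called (-1.02, limma adjusted p = 0.283) and was at 9.18 FPKM in pupal PN and at most 0.715 FPKM in the other columns.

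The histamine-gated channel gene ort was at 84.4 FPKM in pupal PN, against 0.210 FPKM in KC and 2.38 FPKM in DN at 45 h APF and at most 7.99 FPKM in any adult column. The sum of the glial markers was highest in the same library, at 1069.5 FPKM, and the part of glial RNA in the ort value was not tested.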
